A study of Mus musculus with 4 samples.

Results

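Circulating T cells of tumor-bearing mice were compared between an agonist of the costimulatory receptor OX40 given with CpG and an antibody that blocks the inhibitory ligand PD-L1. A cell entered when it had between 200 and 2900 detected genes, with mitochondrial, ribosomal and hemoglobin genes not counted, and at least 1 unique molecular identifier (UMI, a counted transcript molecule) of *Cd3d*, *Cd3e* or *Cd3g*. This left 1481 of the 1583 deposited cells of the OX40 library and 1317 of the 1451 deposited cells of the PDL1 library, together 2798 of the 5434 cells of the series. *Cd3d*, *Cd3e* and *Cd3g* encode subunits of the T cell receptor complex, and they chose the cells, so their levels are no finding.

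All mice were female C57BL/6 animals, 6 to 8 weeks old at the start, with MC38 colon carcinoma cells injected under the skin, and their blood was drawn on day 18. Mice of the PDL1 group received 150 μg of the anti-PD-L1 antibody MIH-5 on days 10, 13 and 17. The OX40 group was taken as the anti-OX40/CpG arm. These mice received 150 μg of the agonistic antibody OX86 and 25 μg of CpG near the tumor on day 7. The T cells were enriched from blood with a negative selection kit and profiled with a droplet-based 3′ assay. Each group is 1 library and the deposited record speaks of 4 mice for the 4 libraries of the series, so mouse, library, treatment and time since the last dose cannot be told apart. Therefore no test was possible between the groups, and all intervals below are 95% intervals that cover counting error only. The untreated library and the PDOX library, from mice given both regimens, are cited as further values.

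OX40 (*Tnfrsf4*) is a member of the TNF receptor family that appears on activated T cells and, when engaged, promotes their expansion and survival. CpG oligonucleotides are read by the innate sensor TLR9. PD-L1 (*Cd274*) is displayed by tumor and immune cells and restrains T cells through PD-1 (*Pdcd1*), so that anti-PD-L1 releases this brake without delivering a costimulatory signal. Activated CD8 and CD4 T cells in blood are recognised by chemokines, granzymes, natural killer (NK) cell receptors and receptors for inflamed tissue, whereas interferon-stimulated genes report exposure of a cell to interferon.

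The 2 libraries were alike in depth. The median T cell held 1665 UMIs and 910 genes in the OX40 library and 1731 UMIs and 957 genes in the PDL1 library, and the summed UMIs were 2576218 and 2506171. The T cell markers *Cd2* and *Lat*, which did not choose the cells, summed to 14.9 UMIs per 10000 in the OX40 and 14 in the PDL1 library. The libraries differed in what else was among the T cells. Of the PDL1 cells, 430 (32.7%) also held a UMI of a marker of B cells, monocytes, neutrophils, platelets, NK or erythroid cells, against 135 (9.12%) of the OX40 cells. Monocyte genes made up most of this: 7 of the 8 listed were lower in the OX40 library and their sum was 7.75 UMIs per 10000 against 27.9. The 8 B cell markers summed to 2.36 against 9.16, with all 5 measured members lower in the OX40 library. The neutrophil and platelet sums stayed under 0.8 UMIs per 10000 in both libraries, and no marker of these lists was at 0 in both. A further 9 cells of the PDL1 library and 1 cell of the OX40 library held at least 20 UMIs of *Gsto1*, *Prss27*, *Asprv1*, *Prss22* and *Upk3bl* together, genes known from epithelia and foreign to blood T cells. Leading results are therefore also given without all of these cells, which left 1345 OX40 and 884 PDL1 cells and is called the cleaned setting below. T cells with a marker of other types numbered 326 of 697 (46.8%) in the untreated and 277 of 1340 (20.7%) in the PDOX library. Untreated and PDOX levels below are not cleaned. The OX40 and PDL1 libraries shared 3 cell barcodes.

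Levels are UMIs per 10000 of the summed UMIs of a library, and a ratio is the OX40 level over the PDL1 level. Among 5914 genes with at least 100 UMIs in both libraries together, 223 (3.77%) were at least 1.5-fold higher and 260 (4.4%) at least 1.5-fold lower in the OX40 library. The median log2 ratio of all these genes was -0.00907. For 63 of the lower genes (24.2%), 5 cells carried at least 50% of the UMIs of the library where the gene was higher, and this held for 4 of the higher genes (1.79%). The cleaned setting left 120 lower genes. It also held fewer cells and UMIs, so fewer genes could reach 100 UMIs, and the 120 is not a share of the same 5914 genes. The plot of ratio against level shows these genes with those named below.

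**Figure D1:**
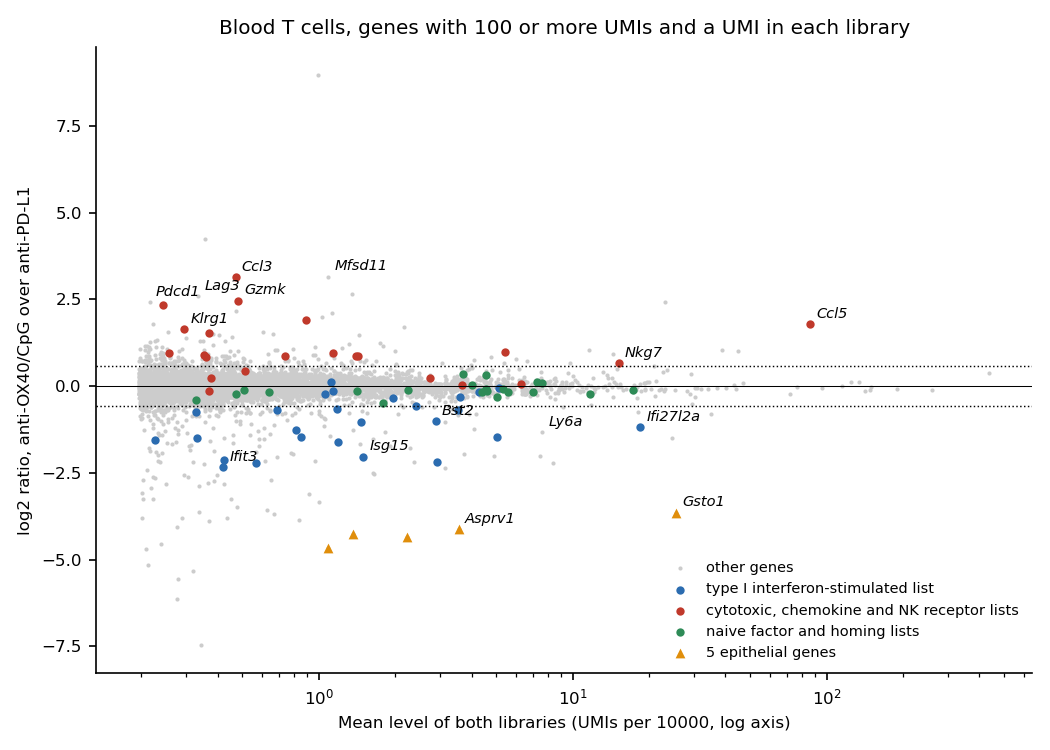
Log2 ratio of the OX40 level to the PDL1 level (y axis) against the mean level of both libraries in UMIs per 10000 (x axis, log scale), with 1 point for each gene with 100 or more UMIs and a UMI in each library and the 1.5-fold limits as dotted lines. Chemokine and granule genes such as *Ccl5* (ratio 3.46) and *Gzmk* (5.52) lie above the upper limit, interferon-stimulated genes such as *Isg15* and *Ifit3* and the 5 epithelial genes (triangles) lie below the lower limit, and the highest point is *Crct1*, which was found in 13 OX40 cells and 1 PDL1 cell.

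Effector chemokines were the group that stood highest in the OX40 library. Of 5 measured effector cytokines and chemokines, 4 were higher and none was lower, with a median log2 ratio of 1.79. *Ccl5*, which draws T cells and monocytes to inflamed sites and is stored by memory T cells, stood at 133 UMIs per 10000 in the OX40, 38.5 in the PDL1, 17.1 in the untreated and 184 in the PDOX library. Its ratio was 3.46 (3.38 to 3.54), and it was found in 684 OX40 cells and 302 PDL1 cells. The OX40 level thus lay between those of anti-PD-L1 alone and of both regimens together. *Ccl4* and *Ccl3*, chemokines of activated T cells, were rarer. *Ccl4* stood at 1.41 UMIs per 10000 in the OX40, 0.375 in the PDL1, 0.536 in the untreated and 1.26 in the PDOX library, with a ratio of 3.75 (2.98 to 4.75). *Ccl3* stood at 0.846, 0.0958, 0.311 and 0.549 in the same order, with a ratio of 8.84 (5.78 to 14.1) from 69 OX40 cells and 15 PDL1 cells. For these, the PDL1 library was the lowest of the 4. *Ifng*, the signature cytokine of type 1 responses, had 87 UMIs in the OX40 and 44 in the PDL1 library, a ratio of 1.92 (1.32 to 2.83). In the cleaned setting the ratios of *Ccl5*, *Ccl4*, *Ccl3* and *Ifng* were 3.49, 3.15, 16.4 and 1.52.

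Genes of the cytotoxic granule were also higher: 5 of 9 measured members passed 1.5-fold and none was lower, with a median log2 ratio of 0.65. *Gzmk*, a granzyme of memory CD8 T cells, showed the largest ratio of this list, 5.52 (3.88 to 8.06). It stood at 0.815 UMIs per 10000 in the OX40, 0.148 in the PDL1, 0.00864 in the untreated and 1.25 in the PDOX library. *Gzma* stood at 7.19 in the OX40, 3.67 in the PDL1, 0.717 in the untreated and 11 in the PDOX library, a ratio of 1.96 (1.81 to 2.12). Both granzymes followed the same order of libraries, from untreated through PDL1 and OX40 to PDOX. *Gzmb*, the granzyme that cleaves caspases, had a ratio of 1.94 (1.63 to 2.32), the cysteine protease inhibitor *Cst7* 1.83 (1.56 to 2.14) and the granule membrane protein *Nkg7* 1.57 (1.5 to 1.65). The cleaned ratio was 5.82 for *Gzmk*, 1.53 for *Gzma* and 2.08 for *Gzmb*.

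Receptors shared with NK cells were higher for 7 of 8 measured genes, with a median log2 ratio of 0.89. *Klrk1* encodes the activating receptor NKG2D and stood at 1.85 UMIs per 10000 in the OX40, 1.02 in the PDL1, 0.501 in the untreated and 2.31 in the PDOX library. Its ratio was 1.82 (1.56 to 2.13). *Klrc1*, the inhibitory receptor NKG2A, stood at 0.951, 0.519, 0.095 and 1.19 in the same order, a ratio of 1.83 (1.48 to 2.29). *Klrg1*, a marker of terminal effector cells, stood at 0.446, 0.144, 0.190 and 0.901, a ratio of 3.11 (2.12 to 4.65). The cleaned ratio was 1.86 for *Klrk1* and 2.39 for *Klrg1*, but 1.43 for *Klrc1*, which then no longer passed 1.5-fold. The eighth gene, *Klrd1*, the partner chain of the NKG2 receptors, stood at 3.69 in the OX40 and 3.62 in the PDL1 library. *Klre1* had a ratio of 2.88 (2.06 to 4.08) and *Klra7* of 5.11 (3.15 to 8.70), and 5 cells held 56.2% of the *Klra7* UMIs of the OX40 library. The NK-defining marker *Ncr1* was used to remove cells in the cleaned setting.

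Of 7 measured genes of the list of inhibitory receptors and *Tox*, which accompany recent or repeated antigen encounter, 4 were higher in the OX40 library and 1, *Cd274*, was lower. *Lag3*, a receptor for MHC class II, stood at 0.574 UMIs per 10000 in the OX40, 0.0958 in the PDL1, 0.0173 in the untreated and 0.416 in the PDOX library, a ratio of 6.00 (3.88 to 9.66). *Pdcd1*, the receptor for PD-L1, stood at 0.365, 0.0678, 0.0259 and 0.313 in the same order, a ratio of 5.38 (3.19 to 9.62), from 61 OX40 cells and 16 PDL1 cells. In both cases the OX40 library was the highest of the 4. *Ctla4* had a ratio of 2.25 (1.47 to 3.52), and *Tox*, a nuclear factor of persistently stimulated T cells, of 1.85 (1.54 to 2.25). The cleaned ratio was 8.83 for *Lag3*, 7.55 for *Pdcd1*, 2.10 for *Ctla4* and 1.72 for *Tox*. *Cd274*, the target of the antibody given to the PDL1 group, ran the other way with 37 UMIs in the OX40 and 119 in the PDL1 library, 3.31-fold lower (2.27 to 4.92). However, 5 cells held 52.1% of its PDL1 UMIs, and its cleaned counts were 27 and 31 UMIs.

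The target of the agonist, *Tnfrsf4*, was itself higher in the OX40 library. It stood at 0.380 UMIs per 10000 in the OX40, 0.128 in the PDL1, 0.138 in the untreated and 0.605 in the PDOX library, a ratio of 2.98 (1.98 to 4.59), and 2.99 in the cleaned setting. The level was thus higher in both libraries of mice that received the agonist than in both others. Of 12 measured genes of OX40 and costimulation, the other to pass 1.5-fold was *Cd40lg*, the ligand of CD40, with a ratio of 1.75 (1.29 to 2.38) that was 1.42 in the cleaned setting. *Foxp3*, the factor of regulatory T cells, had 34 UMIs in the OX40 and 16 in the PDL1 library and *Mki67*, a gene of dividing cells, 22 and 27, both under the minimum of 100.

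Effector transcription factors were higher for 5 of 7 measured members, with a median log2 ratio of 0.84. *Id2*, which sustains effector T cells by holding E proteins in check, stood at 6.12 UMIs per 10000 in the OX40, 3.42 in the PDL1, 2.68 in the untreated and 12.1 in the PDOX library, a ratio of 1.79 (1.65 to 1.95). *Bhlhe40* had a ratio of 2.09 (1.43 to 3.10), *Rora* of 2.01 (1.53 to 2.65), *Eomes* of 1.84 (1.23 to 2.81) and *Runx3*, a factor of the cytotoxic lineage, of 1.67 (1.44 to 1.94). *Maf*, a factor of helper and regulatory T cells, had a ratio of 4.50 (3.22 to 6.42) from 109 OX40 cells and 28 PDL1 cells. Receptors for inflamed tissue were higher for 3 of 12 measured members. *Cxcr3*, the receptor for interferon-induced chemokines, stood at 0.928 UMIs per 10000 in the OX40, 0.447 in the PDL1, 0.432 in the untreated and 2.22 in the PDOX library, a ratio of 2.08 (1.65 to 2.62). *Cxcr6* had a ratio of 1.64 (1.35 to 2.0) and the integrin *Itgb1* of 1.52 (1.34 to 1.73). Among 14 cytokine receptors, *Il2rb*, the IL-2 and IL-15 receptor chain, had a ratio of 1.93 (1.62 to 2.31), with *Il18rap* at 1.82 and *Il18r1* at 1.65. In the cleaned setting the ratio was 1.87 for *Id2*, 4.98 for *Maf*, 1.64 for *Runx3*, 2.81 for *Cxcr3*, 1.74 for *Cxcr6*, 1.92 for *Itgb1* and 2.12 for *Il2rb*, all still past 1.5-fold.

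**Figure D2:**
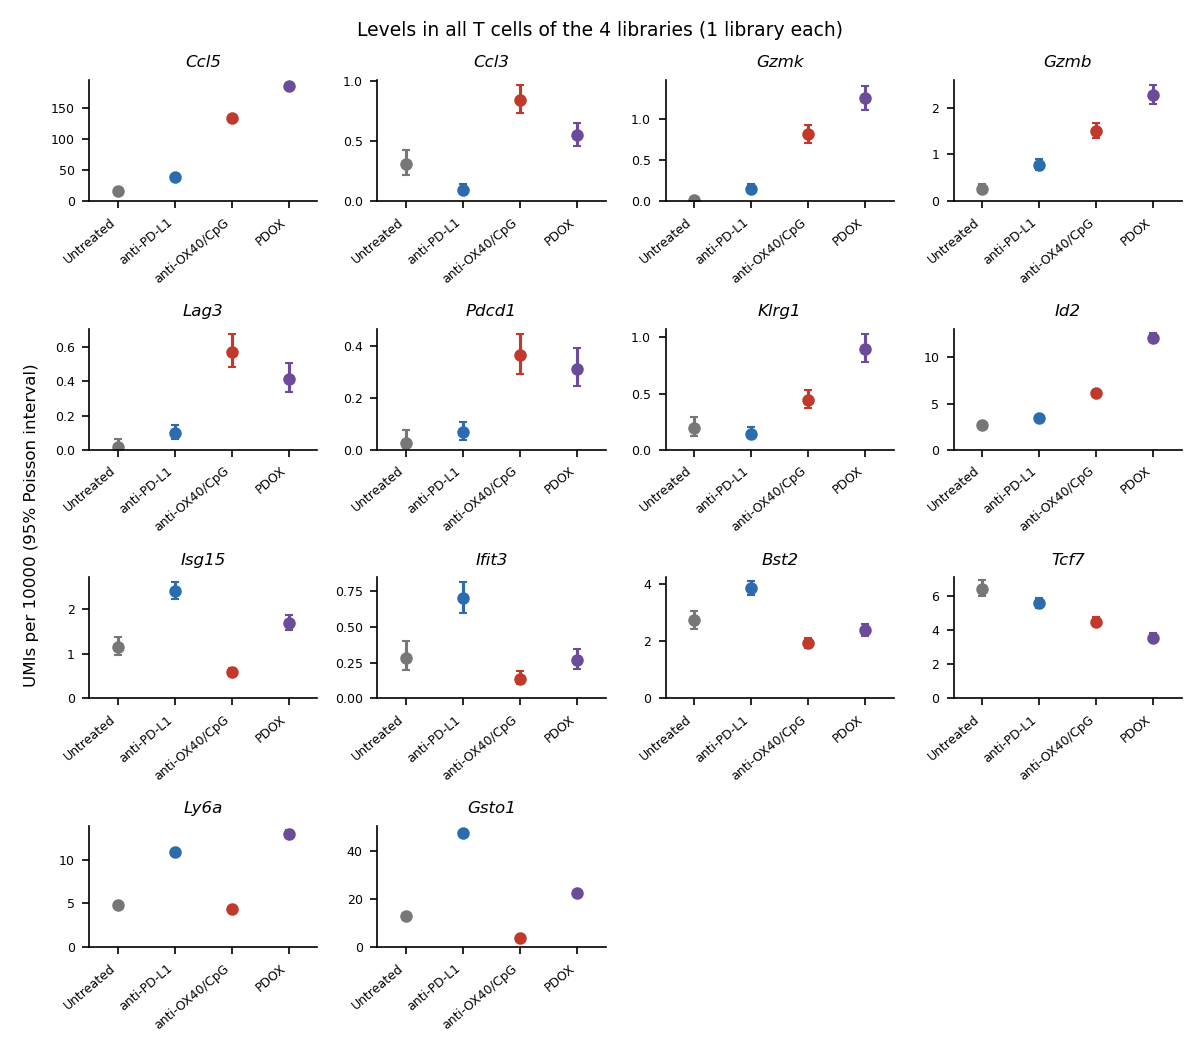
Level in UMIs per 10000 (y axis, linear from 0, scaled for each gene) in the summed T cells of each of the 4 libraries (x axis), with 1 panel a gene, 1 point a library and exact Poisson 95% intervals as bars. *Ccl5* stands at 38.5 in the anti-PD-L1 and 133 in the anti-OX40/CpG library, and *Isg15* at 2.41 and 0.590.

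Genes of resting T cells did not pass 1.5-fold. None of 9 measured naive and memory transcription factors and none of 12 genes of naive homing and survival was past the limit in either direction, and the median log2 ratio was -0.14 for both lists. *Ccr7*, which guides T cells into lymph nodes, was 1.13-fold lower (1.04 to 1.23) and *Tcf7*, the factor of naive and stem-like T cells, 1.24-fold lower (1.15 to 1.35). None of 11 genes of T cell receptor signalling other than the *Cd3* genes that chose the cells passed the limit, and 1 of 8 measured cell cycle genes did, *Mcm5*, which was 1.60-fold lower (1.11 to 2.34). Of 17 immediate early genes, 3 were lower (*Nr4a1*, *Egr1* and *Jund*) and 1 was higher, *Fosb*, with a ratio of 1.62 that was 1.34 in the cleaned setting. *Nr4a1*, which is induced within hours of T cell receptor engagement, was 2.85-fold lower (2.19 to 3.74) at 0.303 UMIs per 10000 against 0.862. The untreated library had the highest *Nr4a1* level of the 4, 1.31, and the PDOX library the lowest, 0.219. These *Nr4a1* values are not cleaned. In the cleaned cells outside the effector range defined below, 2 of 16 measured immediate early genes were lower, *Nr4a1* and *Jund*, and none was higher.

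Interferon-stimulated genes formed the clearest set on the other side. Of 26 measured genes of the type I interferon list, 18 were at least 1.5-fold lower in the OX40 library and none was higher, and the median log2 ratio was -1.01. Interferons induce these genes through the complex ISGF3, which binds interferon-stimulated response elements. Shown here, since the finding rests on these genes, are stretches of RefSeq promoters (build GRCm38.p6) of 4 members that carry a core of this element, read as GAAA, any 2 bases and GAAA again, and searched on both strands from 250 bases before to 50 bases after the start of the gene. Matches are in capitals, and overlapping matches run together.
Isg15: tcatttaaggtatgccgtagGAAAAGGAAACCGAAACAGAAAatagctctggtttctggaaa
Bst2: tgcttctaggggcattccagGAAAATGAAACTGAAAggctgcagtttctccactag
Ifit1: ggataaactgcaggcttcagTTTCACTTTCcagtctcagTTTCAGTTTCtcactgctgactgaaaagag
Ifit3: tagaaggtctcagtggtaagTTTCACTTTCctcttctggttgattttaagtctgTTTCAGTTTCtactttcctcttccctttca
The *Isg15* stretch lies on the minus strand at chr4:156200855-156200916 and its first match starts 78 bases before the gene. The *Bst2* stretch lies on the minus strand at chr8:71537567-71537622, and the *Ifit1* and *Ifit3* stretches lie on the plus strand at chr19:34640765-34640833 and chr19:34583353-34583436. Of 31 promoters of the list found in the table, 14 (45.2%) held a match, against 1131 of all 32851 promoters (3.44%). By gene, these were 13 of 24 members. A match describes the letters of the promoter and was not shown to be a bound site in these cells.

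*Isg15*, a ubiquitin-like protein attached to other proteins after interferon, stood at 0.590 UMIs per 10000 in the OX40, 2.41 in the PDL1, 1.16 in the untreated and 1.70 in the PDOX library. The OX40 level was 4.08-fold lower (3.41 to 4.90) than the PDL1 level, with the gene found in 100 and 249 cells. *Ifit1*, which binds foreign RNA, stood at 0.202, 0.934, 0.501 and 0.403 in the same order and was 4.63-fold lower (3.41 to 6.37). *Ifit3*, its partner, stood at 0.140, 0.702, 0.285 and 0.270 and was 5.03-fold lower (3.5 to 7.41). For these 3 genes the PDL1 library was the highest and the OX40 library the lowest of the 4. The OX40 levels thus lay below the untreated levels as well, but the untreated levels were not cleaned. *Irf7*, the factor that amplifies interferon production, was 3.08-fold lower (2.55 to 3.73). *Bst2*, which tethers virus particles, stood at 1.93 in the OX40 and 3.86 in the PDL1 library and was 2.0-fold lower (1.79 to 2.23). *Ifi27l2a*, the most abundant of these genes, stood at 11.3 and 25.5 and was 2.25-fold lower (2.16 to 2.35).

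The difference was also found without the cells that held markers of other types. In the cleaned setting 15 of 25 measured members were lower and 1 was higher, with a median log2 ratio of -0.79, and the ratio was 0.257 for *Isg15*, 0.258 for *Ifit3*, 0.213 for *Ifit1*, 0.326 for *Irf7*, 0.465 for *Ifi27l2a* and 0.508 for *Bst2*. The members *Ifitm3* and *Ifitm1*, interferon-induced membrane proteins also abundant in myeloid cells, behaved differently. *Ifitm3* was 4.58-fold lower (4.01 to 5.24) in all T cells and had a ratio of 0.914 in the cleaned setting. *Ifitm1* was 2.76-fold lower (2.53 to 3.02) and had a cleaned ratio of 1.02. *Ly6a* (Sca-1) was 2.49-fold lower (2.32 to 2.67) with 50.9% of its PDL1 UMIs in 5 cells, and had a cleaned ratio of 0.850. In cleaned CD8 T cells, however, the ratio was 0.334 for *Ifitm1*, from 96 and 209 UMIs, and 0.569 for *Ly6a*, from 206 and 263 UMIs. Genes of the interferon-gamma and MHC class I list were lower for 6 of 19 members, with a median log2 ratio of -0.30. These were guanylate-binding proteins and immunity-related GTPases, such as *Gbp2*, 1.71-fold lower (1.40 to 2.11), and *Igtp*, 1.72-fold lower (1.49 to 2.0), together with the factor *Irf1*. The MHC class I genes themselves were not past the limit: *B2m* stood at 65.9 UMIs per 10000 in the OX40 and 77.5 in the PDL1 library, and *H2-K1* at 29.9 and 30.8.

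The interferon difference was also seen in the median cell. After each cell was thinned to 1000 UMIs, the UMIs of the type I interferon list were summed per cell. The median T cell held 3 such UMIs (quartiles 2 to 5) in the OX40 and 6 (quartiles 4 to 9) in the PDL1 library, with a median of 4 in the untreated and in the PDOX library. At least 10 such UMIs were found in 74 of 1198 OX40 cells (6.18%, 4.88 to 7.69) and in 257 of 1109 PDL1 cells (23.2%, 20.7 to 25.8). In the CD8 cells these shares were 2.57% (1.44 to 4.20) and 18.9% (15.8 to 22.4). In the CD4 cells they were 11.1% (7.29 to 15.9) and 29.6% (22.7 to 37.3). In all T cells the shares of the untreated and PDOX libraries, 9.22% and 15.7%, lay between those of the OX40 and PDL1 libraries. In the CD4 cells the untreated share was 9.88% (4.36 to 18.5), under the OX40 share but with an overlapping interval. In the cleaned setting the median cell again held 3 and 6 such UMIs, and at least 10 were found in 5.69% (4.38 to 7.24) of 1073 OX40 cells and 20.9% (18 to 24.1) of 712 PDL1 cells. Without *Ifitm1* and *Ifitm3* these cleaned shares were 4.75% (3.56 to 6.20) and 20.1% (17.2 to 23.2).

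**Figure D3:**
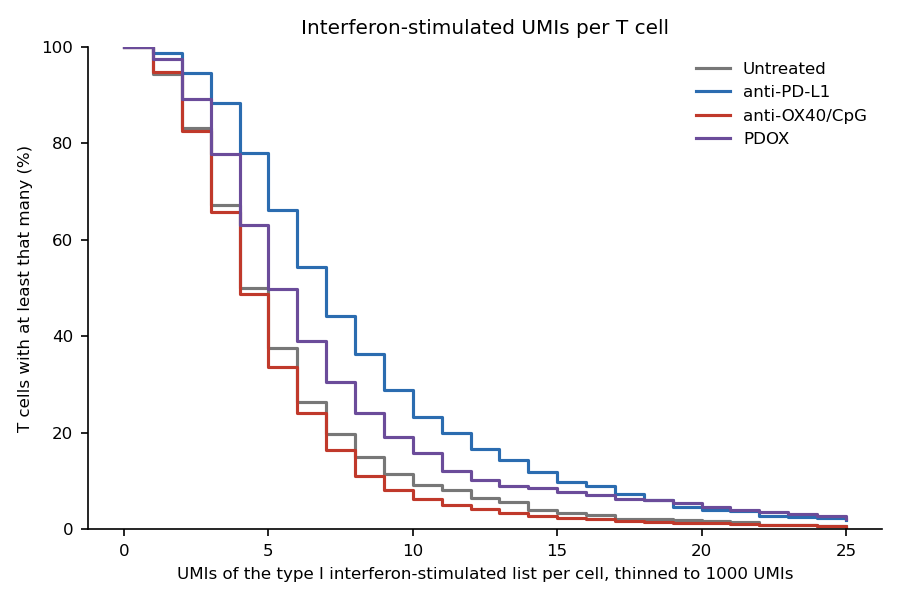
Share of T cells in percent (y axis) with at least a given number of type I interferon-list UMIs after thinning to 1000 UMIs (x axis, with 25 standing for 25 or more), 1 line for each of the 4 libraries. At 10 UMIs the anti-PD-L1 line is the highest, at 23.2%, and the anti-OX40/CpG line the lowest, at 6.18%, with the untreated line just above it at 9.22%.

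The lowest ratios of all belonged to genes of the few cells rich in epithelial transcripts. *Upk1b*, *Muc1*, *Prss8*, *Cldn23*, *Upk3bl*, *Prss27*, *Prss22* and *Asprv1* were among the 12 lowest with the same direction in both lineages, and 5 cells held between 72.4% and 87.8% of the PDL1 UMIs of each. *Gsto1* stood at 3.77 UMIs per 10000 in the OX40 and 47.2 in the PDL1 library, 12.5-fold lower (11.7 to 13.4), with 12.7 in the untreated and 22.4 in the PDOX library. The 9 cells of the PDL1 library held 95.5% of the UMIs of the 5 genes that picked them. At the other end, *Mfsd11*, *Snhg9* and *Ankfy1* were higher in the OX40 library than in the 3 others. *Mfsd11*, a membrane protein of unassigned role in T cells, stood at 1.96 in the OX40, 0.219 in the PDL1, 0.285 in the untreated and 0.124 in the PDOX library, a ratio of 8.93 (6.75 to 12). Of the 223 higher genes, 51 were at least 1.5-fold above all 3 other libraries, and of the 260 lower genes, 98 were below all 3. These counts are not cleaned. The OX40 library had the lowest share of T cells with a marker of other types, 9.12%, the next being PDOX at 20.7%. It also had the fewest epithelial-transcript cells, 1 against 2 in the untreated and 5 in the PDOX library. How many of the 98 genes reflect such cells was not tested.

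The T cells were split by lineage, CD8 by *Cd8a* or *Cd8b1* UMIs without *Cd4* UMIs and CD4 by the reverse. The CD8 share was 45.4% (42.9 to 48.0) in the OX40 and 49.6% (46.8 to 52.3) in the PDL1 library, and the CD4 share was 17.8% (15.9 to 19.9) and 15% (13.1 to 17). These intervals overlapped. This gave 673 OX40 and 653 PDL1 cells for CD8 and 264 and 197 for CD4, while 63 and 67 cells had UMIs of both lineages and 481 and 400 of neither.

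In CD8 T cells, 110 of 3731 measured genes (2.95%) were at least 1.5-fold higher and 129 (3.46%) at least 1.5-fold lower in the OX40 library. Chemokines led again. *Ccl3* stood at 1.52 UMIs per 10000 in the OX40, 0.0840 in the PDL1, 0.221 in the untreated and 0.291 in the PDOX library, a ratio of 18.1 (9.90 to 36.9), with 189 UMIs in 50 cells against 11 UMIs in 8 cells. *Ccl4* had a ratio of 4.86 (3.70 to 6.48). *Ccl5* stood at 202 UMIs per 10000 in the OX40, 58.3 in the PDL1, 23.6 in the untreated and 306 in the PDOX library, a ratio of 3.46 (3.38 to 3.55). The *Ccl3* and *Ccl4* levels of the OX40 library exceeded those of the PDOX library, whereas for *Ccl5* the order was the opposite. *Lag3* had a ratio of 6.99 (4.11 to 12.7), *Gzmk* of 6.21 (4.11 to 9.72) and *Tox* of 2.49 (1.89 to 3.29). The cytotoxic granule list had 3 of 9 members higher (*Gzmk*, *Cst7* and *Gzmb*), the NK receptor list 4 of 6, and neither list had a lower member. *Klre1*, 1 of these 4 receptors, turned to a log2 ratio of -0.2907 when each cell was thinned to 1000 UMIs.

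Some CD8 cells held several of these transcripts. Of 584 thinned OX40 CD8 cells, 32 (5.48%, 3.78 to 7.65) held UMIs of 3 or more of *Ccl3*, *Ccl4*, *Gzmk*, *Lag3*, *Pdcd1* and *Tox*, and of 581 thinned PDL1 CD8 cells 1 did (0.172%, 0.00436 to 0.955). These 6 genes were chosen after their values had been seen, as higher in the OX40 library, so the direction of this count is fixed by the choice and no value for their meeting by chance is given. The PDOX library, with the higher *Ccl5* level, had 3 such cells among 363. The order of these libraries depended on the cut. UMIs of 1 or more of the 6 genes were held by 31.1% (26.4 to 36.2) of the PDOX and 21.6% (18.3 to 25.1) of the OX40 CD8 cells. For 2 or more, the shares were 8.54% (5.88 to 11.9) and 10.1% (7.78 to 12.8).

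Interferon-stimulated genes were lower in CD8 T cells for 17 of 22 measured members and higher for none, with a median log2 ratio of -0.97. *Isg15* was 4.02-fold lower (3.11 to 5.27), at 0.588 UMIs per 10000 in the OX40, 2.37 in the PDL1, 0.608 in the untreated and 1.32 in the PDOX library. Here the OX40 and untreated levels were alike, the PDL1 level was the highest and the PDOX level lay between. *Gbp2*, a guanylate-binding protein, was 2.42-fold lower (1.77 to 3.36). The cleaned setting kept 12 of 18 measured members lower, with a median log2 ratio of -0.92. The lowest CD8 genes were again those of the epithelial-transcript cells, such as *Upk3bl* with 0 UMIs in the OX40 and 181 in the PDL1 library, at least 57.2-fold lower against a floor of 3 UMIs per library.

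In CD4 T cells, 70 of 1341 measured genes (5.22%) were at least 1.5-fold higher and 33 (2.46%) at least 1.5-fold lower in the OX40 library. The S100, annexin and galectin list, genes of calcium-binding and cytoskeletal proteins that accompany effector and memory differentiation, held 9 of the higher genes among its 16 measured members and had a median log2 ratio of 0.71. In CD8 T cells the same list had 1 higher and 3 lower members of 17, with a median log2 ratio of -0.14, and in all T cells 2 higher and 3 lower of 18. Of the 3 lower CD8 genes, *Anxa2* turned to a log2 ratio of 0.2557 in the cleaned setting. Among the 9 CD4 genes, *S100a6* and *Lgals3* turned to log2 ratios of -0.49 and -0.7725 when cells with UMIs of both lineages were kept. *S100a4* stood at 9.70 UMIs per 10000 in the OX40, 1.72 in the PDL1, 3.27 in the untreated and 18.7 in the PDOX library, a ratio of 5.65 (4.27 to 7.60), and was found in 72 OX40 cells and 12 PDL1 cells. *Ahnak*, a large scaffold protein of the membrane, had a ratio of 4.03 (2.50 to 6.84) and *Lgals1*, which encodes galectin-1, of 2.19 (1.90 to 2.52). Of 3 measured genes of the cytotoxic granule list in CD4 T cells, 1 was higher, *Nkg7*, and none was lower. The others, *Ctsw* and *Srgn*, had ratios of 1.38 and 1.31. No granzyme and no gene of the NK receptor list had enough UMIs in CD4 T cells to be measured. *Nkg7* stood at 7.55 in the OX40, 1.69 in the PDL1, 0.860 in the untreated and 24.0 in the PDOX library, a ratio of 4.47 (3.36 to 6.06). *Ccl5* stood at 26.8, 5.67, 5.85 and 108, a ratio of 4.73 (4.05 to 5.55), and 5 cells held 90.3% of the PDL1 UMIs. *Id2* stood at 7.71, 2.24, 1.95 and 16.3, a ratio of 3.45 (2.67 to 4.49). The cleaned ratios of *S100a4*, *Nkg7*, *Ccl5* and *Id2* were 9.83, 8.27, 8.90 and 3.48. For these 3 genes, *Nkg7*, *Ccl5* and *Id2*, the PDL1 CD4 cells lay closer to the untreated than to the OX40 cells. *Gpr183*, the oxysterol receptor that positions helper T cells, had a ratio of 2.88 (1.80 to 4.82).

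On the lower side in CD4 T cells stood *Bst2*, 2.13-fold lower (1.56 to 2.90), and *Irf7*, 2.0-fold lower (1.32 to 3.05). The interferon list as a whole had 6 of 13 measured members lower and 1 higher, *Ifitm1*, with a median log2 ratio of -0.45. The cleaned setting left 3 of 9 lower. *Foxo1*, the factor that keeps T cells quiescent and homing, was 1.68-fold lower (1.16 to 2.42), *Trim12a*, a TRIM family member, 1.91-fold lower (1.37 to 2.67), and *Mat2a*, which makes the methyl donor of the cell, 1.83-fold lower (1.29 to 2.61). Too few UMIs of *Ccl3*, *Gzmk*, *Lag3*, *Klrk1* and *Cxcr3* were found in CD4 T cells to reach 100, but their counts were 5 and 0, 23 and 0, 17 and 3, 33 and 4, and 76 and 12 in the OX40 and PDL1 libraries.

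Over the 1339 genes measured in both lineages, the log2 ratios of CD8 and CD4 T cells had a Pearson r of 0.70 and a Spearman rho of 0.35. This correlation is across genes, which are not independent replicates, and both lineages came from the same pair of libraries. The set is not cleaned and holds epithelial genes such as *Gsto1*, with ratios of 0.0151 in CD8 and 0.00677 in CD4 T cells. How far such genes raise the Pearson r was not tested. Of the 1339 genes, 29 were higher in CD8 and 70 in CD4 T cells. The 18 higher in both were 62.1% and 25.7% of these. On the lower side stood 26 genes in CD8 and 33 in CD4 T cells. The 15 lower in both, with *Gsto1* among them, were 57.7% and 45.5% of these. The ratio of *S100a4* was 4.56 times as large in CD4 as in CD8 T cells (3.38 to 6.14), that of *Nkg7* 3.08 times (2.31 to 4.12) and that of *Id2* 2.65 times (2.01 to 3.49). The ratio of *Jak1*, a kinase of cytokine receptors, was 1.34 in CD8 and 0.731 in CD4 T cells, which is 1.84 times as large in CD8 (1.45 to 2.34), and *Snhg9* (1.77 times, 1.01 to 3.08), *Trim12a* (1.77 times, 1.23 to 2.56) and *Irf2* (1.75 times, 1.16 to 2.64) followed. The plot of CD8 and CD4 ratios shows *S100a4*, *Nkg7* and *Id2* with other genes measured in both lineages.

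**Figure D4:**
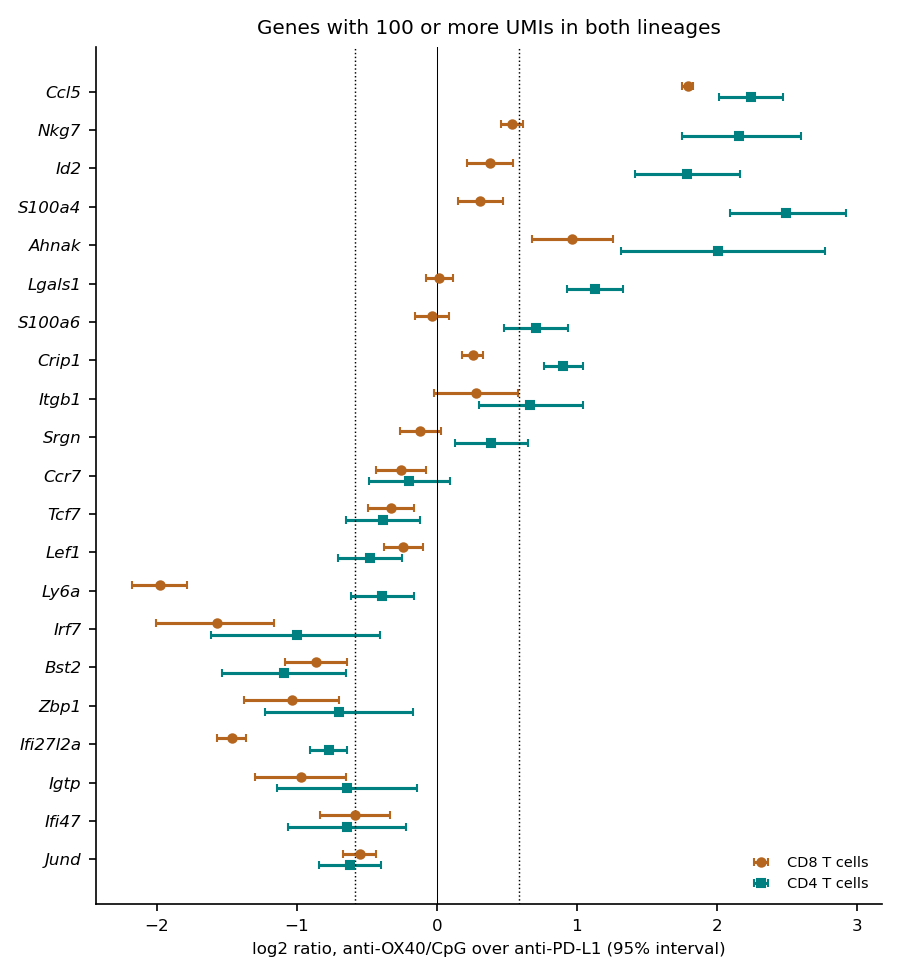
Log2 ratio of the OX40 to the PDL1 level (x axis) with its 95% interval in CD8 T cells (circles) and CD4 T cells (squares) for chosen genes with 100 or more UMIs in both lineages (y axis), and the 1.5-fold limits as dotted lines. *Ccl5* lies above the upper limit in both lineages (ratios 3.46 and 4.73), whereas *S100a4*, *Nkg7* and *Id2* lie above it in CD4 T cells and not in CD8 T cells. The ratios are not cleaned.

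To compare cells of a like score, an effector range was set per cell. It required at least 2 UMIs of *S100a4*, *S100a6* and *Lgals1* together after thinning to 1000 UMIs. This is a range of a score and not a cell type, and these 3 genes are not compared within it. It held 366 of 1198 OX40 cells (30.6%, 28.0 to 33.2) and 205 of 1109 PDL1 cells (18.5%, 16.2 to 20.9), against 16.6% of untreated and 55.0% of PDOX cells. In CD8 T cells the shares were 27.7% (24.1 to 31.6) and 18.1% (15 to 21.4), and in CD4 T cells 37.2% (30.9 to 43.8) and 18.5% (12.9 to 25.4). The PDL1 share was close to the untreated share in CD4 T cells (21%) and above it in CD8 T cells (10.4%). At the limit itself stood 67 OX40 and 55 PDL1 cells with exactly 2 UMIs, and 177 and 173 cells with 1. In the cleaned setting the range held 325 OX40 and 108 PDL1 cells.

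**Figure D5:**
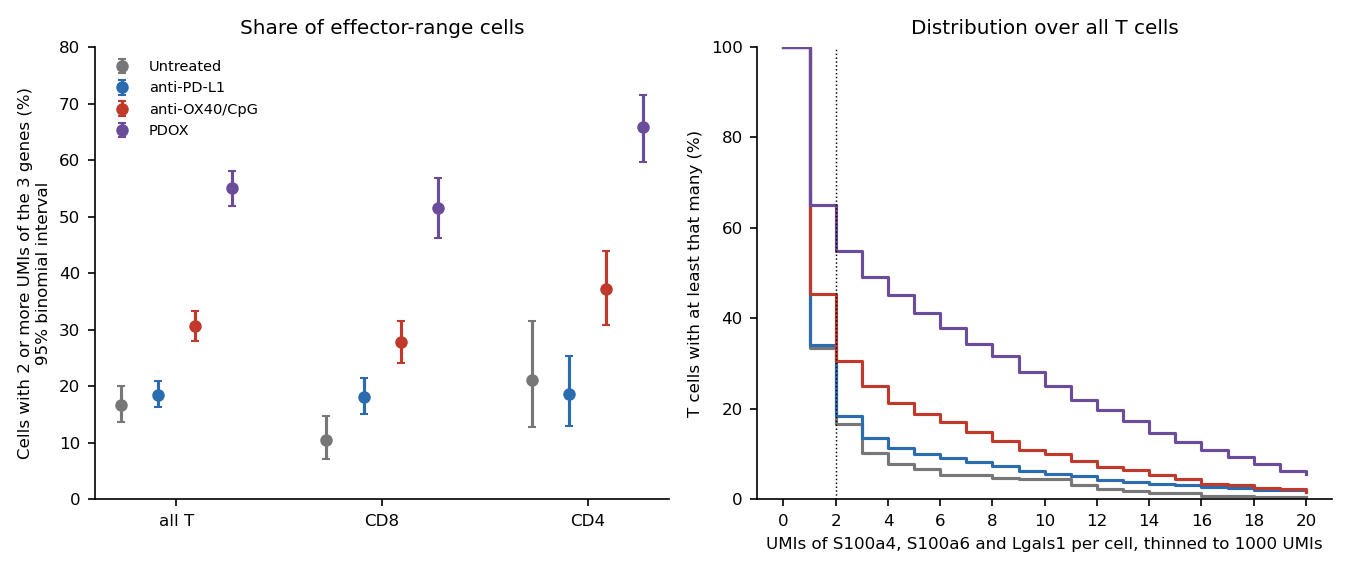
Left, share of cells in the effector range in percent (y axis) with exact binomial 95% intervals for all T, CD8 and CD4 cells (x axis), 1 point for each of the 4 libraries. Right, share of all T cells in percent (y axis) with at least a given number of UMIs of *S100a4*, *S100a6* and *Lgals1* after thinning (x axis, with 20 standing for 20 or more), in the same colors, where at the dotted limit of 2 UMIs the anti-OX40/CpG share is 30.6% and the anti-PD-L1 share 18.5%.

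Most transcripts of several effector genes came from this range in both libraries. It held 85.6% of the *Ccl5* UMIs of the OX40 and 86.9% of those of the PDL1 library, 89.3% and 89.2% of *Gzmk* and 91.7% and 87.5% of *Lag3*. Other genes were less bound to it, with 68.8% and 51.2% of the *Nkg7* UMIs and 45.5% and 26.3% of the *Tox* UMIs in the range. By contrast, it held 51.6% and 48.0% of the *Isg15* UMIs and 29.5% and 27.5% of *Bst2*. Transcripts of *Ccl5*, *Gzmk* and *Lag3* were thus mostly in the range, and those of the interferon-stimulated genes inside and outside it.

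Inside the range, 245 of 2459 measured genes (9.96%) were at least 1.5-fold higher and 177 (7.2%) at least 1.5-fold lower in the OX40 library. Without the 9 cells of the PDL1 library and the 1 OX40 cell rich in epithelial transcripts the higher genes fell to 130, so the cleaned setting is used here, in which 93 of 1688 (5.51%) were higher and 66 (3.91%) lower. *Ccl5* (ratio 1.95), *Ccl4* (1.62) and *Ccl3* (7.56) remained past 1.5-fold within the range, as did *Gzmk* (2.95), *Lag3* (4.86), *Tox* (2.49), *Maf* (3.57), *Il2rb* (1.75) and *Runx3* (1.72). The NK receptors and the other granzymes mostly did not: *Klrk1* had a ratio of 0.900, *Klrc1* of 0.771, *Gzma* of 0.803 and *Gzmb* of 1.20, and of 6 measured NK receptors only *Klrg1* (1.63) passed. *Id2* had a ratio of 1.43 and *Cxcr3* of 1.34. Of the genes of naive homing and survival, 5 of 10 measured were lower inside the range, among them *Ccr7* (ratio 0.535) and the survival factor *Bcl2* (0.523). Cells in the range thus still differed in naive genes between the libraries, and how far this enters the other ratios was not tested. Interferon-stimulated genes were lower for 7 of 14 and higher for 1.

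Outside the range, 102 of 4367 genes (2.34%) were higher and 102 (2.34%) lower, and in the cleaned setting 86 of 3586 (2.4%) and 71 (1.98%). *Ccl5* was higher there as well, with a ratio of 4.40 and of 6.66 in the cleaned setting. Interferon-stimulated genes were lower for 15 of 23 measured members and higher for none, and the cleaned setting gave 10 of 18. *Isg15* had a ratio of 0.220 outside the range in both settings. At least 10 interferon-list UMIs were held by 4.33% (3.05 to 5.94) of the OX40 and 19.9% (17.4 to 22.7) of the PDL1 cells outside the range, and by 10.4% (7.45 to 14) and 37.6% (30.9 to 44.6) inside it.

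Shares of cells with a UMI followed the levels. After thinning, *Ccl5* was found in 40.5% (37.7 to 43.3) of the OX40 and 19.5% (17.2 to 21.9) of the PDL1 T cells, and unthinned in 46.2% and 22.9%. At least 10 *Ccl5* UMIs were held by 19.6% (17.4 to 22) and 6.58% (5.19 to 8.21). As a background, 7 of 64 cells of both libraries with B cell markers and no *Cd3* UMI held *Ccl5* (10.9%, 4.51 to 21.2), with 1 UMI each and a median depth of 1279 UMIs. These were 5 of 57 PDL1 cells (8.77%, 2.91 to 19.3) and 2 of 7 OX40 cells (28.6%, 3.67 to 71.0), so the background of the OX40 library is known only within a wide interval. In CD4 T cells *Ccl5* and *Nkg7* were each found in 23.5% (18.1 to 29.5) of the OX40 and 8.02% (4.34 to 13.3) of the PDL1 cells, against 6.25% of the background cells for *Nkg7*. For *Ccl5* the shares of both libraries lay within the background intervals. At least 3 *Ccl5* UMIs, which no background cell had, were held by 7.08% (4.10 to 11.2) of the OX40 and 1.23% (0.150 to 4.39) of the PDL1 CD4 cells. *Id2* was found in 30.1% (24.2 to 36.5) of the OX40 and 16% (10.8 to 22.6) of the PDL1 CD4 cells, against 1.56% of the background cells. *Cxcr3* was found in 11.1% (7.29 to 15.9) and 1.85% (0.384 to 5.32) of these cells and in 0 of the 64 background cells, which allows a share of up to 5.60%. In CD8 T cells *Gzmk* was found in 7.19% (5.23 to 9.60) of the OX40 and 1.55% (0.711 to 2.92) of the PDL1 cells, and *Isg15* in 2.57% (1.44 to 4.20) and 12.6% (9.98 to 15.5). The background cells held *Isg15*, which B cells also express after interferon, in 9.38% (3.52 to 19.3) and *Gzmk* in none. *Igfbp4*, a gene of naive T cells, was found in 29.6% (23.8 to 36.1) and 48.1% (40.2 to 56.1) of the CD4 cells and in none of the background cells.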

How the data were processed

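The authors deposited raw UMI counts per gene and cell (10x Chromium 3′ v2, Cell Ranger 2.1.1 in the study's methods, Seurat 2 and the mm10 build in the submitters' processing notes), with 27998 genes and without normalization. No sum held the 13 mitochondrial, 109 ribosomal or 8 hemoglobin genes. Counts were summed over the cells of a library, so with 1 library a side there was no test. Levels carry exact Poisson, shares exact Clopper-Pearson and ratios exact conditional binomial 95% intervals, and ratios of ratios Wald intervals on the log scale. A gene with 0 UMIs was set to 3. Shares were read after thinning each cell to 1000 UMIs, which left out 283 OX40 and 208 PDL1 cells. Scrublet marked 0.379% of cells as doublets. How many doublets it missed was not tested, and none were removed except in an alternative. On counts simulated per library, without clustering of UMIs in cells, 95.7% of the ratio intervals of 6271 genes held the true ratio. The simulation has the same counting model as the intervals, so it checks their computation only and not the spread between cells. The analysis used Python 3.11.15, numpy 2.4.6, scipy 1.17.1, pandas 2.3.3 and scanpy 1.11.5.

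The cells, gene lists and named genes were chosen with earlier results of these data known. Named are the 12 highest and 12 lowest ratios in all T cells with the same direction in both lineages, the 8 highest and lowest in each lineage, up to 4 members per list, the targets and study genes, and the 5 most different between lineages. Left out of the highest and lowest were predicted, receptor and immunoglobulin symbols (33 in all T cells, with 13 marker genes). Some symbols of the lists, such as *Trac* and *Trdc*, were not analysed here. The alternatives are given with the closing observations. Results of some further genes are not reported here.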

Additional observations from a re-analysis of the deposited data

Results flagged for a closer look

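For 3 genes the ratio of the OX40 to the PDL1 library pointed in opposite directions in CD8 and CD4 T cells, past 1.5-fold in each. With 1 library a side the difference was not tested, and the values are not cleaned and carry counting error only. *Cd9*, a tetraspanin, had a ratio of 0.631 in CD8 and 1.55 in CD4 T cells, so the CD8 ratio was 0.408 (0.263 to 0.632) of the CD4 ratio. *Ifitm1* had ratios of 0.316 and 1.60, a quotient of 0.197 (0.136 to 0.287). *Lgals3*, which encodes galectin-3, had ratios of 0.448 and 1.87, a quotient of 0.240 (0.154 to 0.374). The opposite directions of *Ifitm1* and *Lgals3* did not hold when cells with UMIs of both lineages were kept, as given with the processing.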

How the results depend on the processing

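No paired analysis was possible because each group holds 1 library. Of 140 named ratios past 1.5-fold, 138 stayed past it with all genes kept in the sums, 138 with at least 2 *Cd3* UMIs, 132 with a mean over cells, 139 with median-ratio scaling and 123 after thinning. Gene counts are given as higher and lower in the OX40 library, for all T cells, CD8, CD4 and the effector range in that order. The number of genes measured changes with the minimum, with thinning and with the cells kept, so these counts are not shares of the same genes. A minimum of 50 UMIs gave 404 and 501, 266 and 323, 191 and 138, and 539 and 396. A minimum of 200 UMIs gave 105 and 124, 52 and 51, 27 and 13, and 105 and 94. A limit of 2-fold gave 61 and 134, 39 and 49, 17 and 6, and 48 and 117. Thinning to 1000 UMIs gave 116 and 101 in all T cells, 54 and 55 in CD8 and 24 and 21 in CD4 T cells, a CD4 share of 12.85% in the OX40 and 10.28% in the PDL1 library, and a log2 ratio of *Klre1* in CD8 T cells of -0.2907. Leaving out the 5 highest cells of each gene gave 109 higher genes in CD4 T cells.

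Keeping cells with UMIs of both lineages gave 107 and 73 genes in CD4 T cells, CD8 shares of 49.7% and 54.67% and CD4 shares of 22.08% and 20.05% in the OX40 and PDL1 libraries. The log2 ratios in CD4 T cells then turned to -0.49 for *S100a6*, -2.29 for *Ifitm1* and -0.7725 for *Lgals3*. With at least 1 UMI of the 3 genes, the effector range held 45.33% and 34.08% of all T, 40.75% and 34.42% of CD8 and 52.21% and 35.8% of CD4 T cells in the OX40 and PDL1 libraries. With at least 3 UMIs it held 24.96% and 13.53% of all T cells, 21.58% and 13.94% of CD8 T cells and 30.53% of the OX40 CD4 T cells, and after thinning to 750 UMIs 26.52% and 14.98% of all T and 23.52% and 14.45% of CD8 T cells.

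Leaving out the epithelial-transcript cells, both kinds of cells together, the 5 highest cells of each gene, or *Ifitm1* and *Ifitm3* was chosen after seeing the data. Without cells holding UMIs of other cell types, 132 genes were lower in all T cells, 114 were higher and 73 lower in the effector range, the PDL1 share of the range was 15.52%, and the log2 ratios turned to 0.4088 for *Lgals3* and 0.2869 for *Anxa2* in all T cells and 0.2557 for *Anxa2* in CD8 T cells. Without the epithelial-transcript cells, 130 genes were higher in the range. Without both kinds of cells, 120 genes were lower in all T cells, 93 were higher and 66 lower in the range, the PDL1 share was 15.17%, and the log2 ratios were 0.415 for *Lgals3* and 0.5098 for *Anxa2* in all T cells and 0.2557 for *Anxa2* in CD8 T cells. Except where a value or the alternative itself shows it, the cause was not tested.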

Other observations

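Several genes stood apart in the OX40 library from all 3 others. *Snhg9*, a small nucleolar RNA host gene, stood at 1.84 UMIs per 10000 in the OX40, 0.423 in the PDL1, 0.890 in the untreated and 0.313 in the PDOX library. *Ankfy1*, an endosomal protein, stood at 1.65, 0.415, 0.553 and 0.356 in the same order. *Crct1*, a gene of the skin barrier, had 510 UMIs in 13 cells of the OX40 library and was found in 1 cell of the PDL1 library.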
